A study of Rattus norvegicus with 21 samples.

Results

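Compound E was tested at 300 nM on rat pancreatic islets that were kept for 24 h under glucolipotoxicity (GLT), that is, in 27 mM glucose with 300 µM palmitate. Of the 21 RNA-seq libraries of the series, 2 held islets given GLT with compound E for 24 h, 1 each from preparations 1 and 2. They were compared with the 3 libraries of islets under GLT without compound for the same time, 1 each from preparations 1, 2 and 3, and were paired by preparation. The members were taken from the column names of the deposited count table, and no measured value entered the choice. Each preparation was a separate isolation of islets from 8 Sprague Dawley rats, pooled and then divided over the culture groups, so a library holds pooled animals and n counts preparations. Compound D, given under GLT at the same dose and time in all 3 preparations, served as the second comparison. The labels name neither a structure nor a target for compounds E and D.

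Pancreatic islets are small clusters of endocrine cells in which beta cells make insulin, alpha cells glucagon and delta cells somatostatin. Prolonged exposure to high glucose together with a saturated fatty acid loads the endoplasmic reticulum (ER) of beta cells, raises oxidative stress and reduces insulin secretion. In beta cells glucose also switches on a set of genes through the glucose-sensing factor ChREBP and its partner, of which Txnip, the gene for an inhibitor of thioredoxin, is the best known.

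The 5 libraries held 22.3 to 34.4 M counts in genes. Values are given as CPM, counts per M counts in genes after scaling by TMM, edgeR's correction for the makeup of each library. The compound E library of preparation 1 stood apart. Its TMM factor of 0.682 was the lowest of the 21, its share of reads outside annotated genes, 10.3%, was also the lowest, and its share of counts in cytosolic ribosomal protein genes, 3.06%, was the highest. Its log2 CPM values correlated with those of the GLT library of its own preparation at r = 0.956 across genes, while the corresponding value in preparation 2 was 0.993 and the 3 GLT libraries correlated with each other at 0.976 to 0.990. The compound D library of preparation 2 had the second lowest TMM factor, 0.754, and the second lowest share outside genes, 11.96%. Results that rest on the compound E library of preparation 1 are therefore given beside those of preparation 2 alone.

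No gene was called for compound E: edgeR's quasi-likelihood test with Benjamini-Hochberg (BH) adjustment put 0 of 12576 genes below 0.05 (0% called, n = 2 against 3 libraries), and its lowest adjusted p was 0.566. Before adjustment 812 genes (6.46%) had a p below 0.05, 626 higher with compound E (4.98%) and 186 lower (1.48%). DESeq2, limma with quality weights and limma with preparation as a random effect put 968, 595 and 953 genes below 0.05 before adjustment. Each of them called 0 genes. The count rested on which compound E library was kept: with the one of preparation 1 alone it was 2711, and with the one of preparation 2 alone it was 0, with 83 genes below 0.05 before adjustment. Each of these fits holds 1 compound E library, which is assumed to vary like the libraries of the other groups, so the 2711 describe the distance of that library from GLT. The 95% interval of the fitted log2 fold change lay within a 2-fold change in either direction for 6337 genes (50.4%), and for the other genes the interval did not exclude a change of 2-fold or more. Among the 8794 genes with a mean of at least 5 CPM in either group, 5702 (64.8%) had such an interval.

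The pairs differed in how far compound E libraries lay from their own GLT library. In preparation 1, 1700 of the 8794 genes (19.3%) were at least 2-fold apart, 632 higher and 1068 lower with compound E. In preparation 2, 12 genes were (0.136%), 9 higher and 3 lower. For compound D the same counts were 471 (5.36%), 1165 (13.2%) and 247 (2.81%) in preparations 1, 2 and 3. The standard deviation of the log2 difference over genes was 0.85 with compound E in preparation 1 and 0.20 in preparation 2, against 0.52, 0.74 and 0.42 with compound D.

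**Figure D1:**
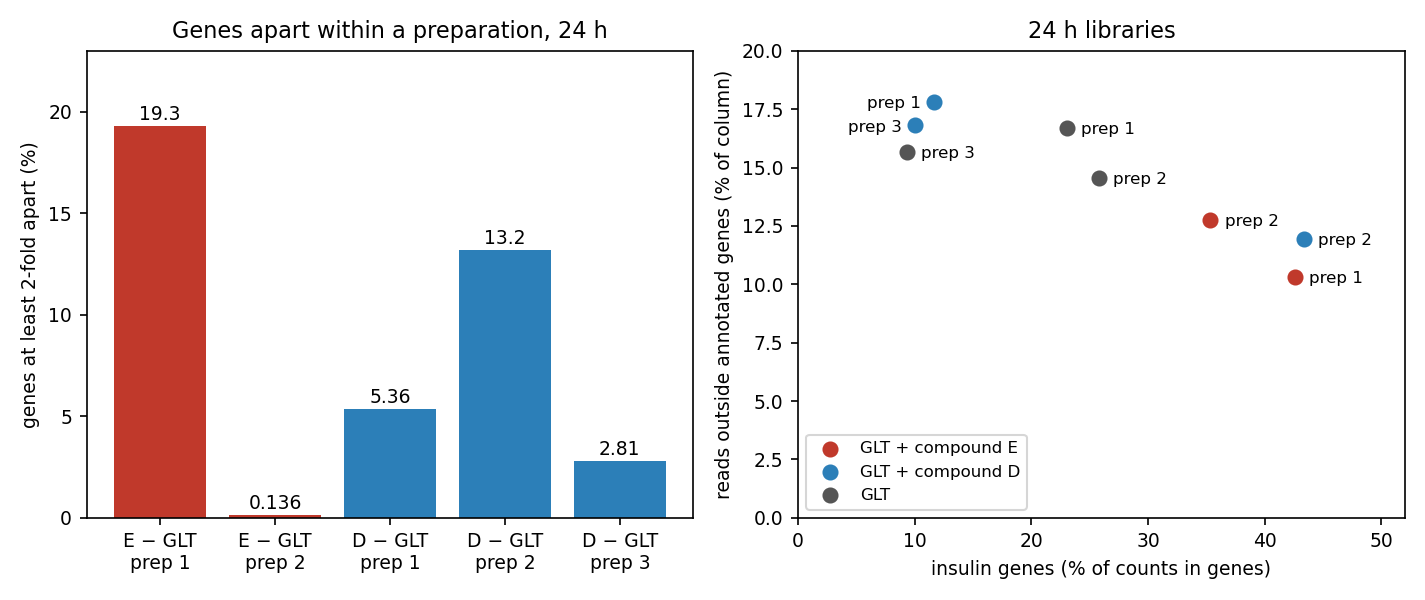
The left panel plots, for each preparation, the percent of 8794 genes at least 2-fold apart between compound E or compound D and GLT at 24 h; the right panel plots, for the 8 libraries at 24 h under GLT, the percent of counts in insulin genes (x axis) against the percent of reads outside annotated genes (y axis). Preparation 1 with compound E reached 19.3% and preparation 2 with compound E 0.136%, and the compound E library of preparation 1 has the lowest share outside genes, 10.3%.

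The log2 differences of both compound E pairs, which share no library, correlated at r = 0.372 (Spearman rho = 0.397) over the 8794 genes. Genes are not independent replicates, and no p is given. Of the 1700 genes at least 2-fold apart in preparation 1, 1308 (76.9%) had the same sign in preparation 2, against 5688 (64.7%) of all 8794. The difference of compound E from GLT in preparation 1 correlated more closely with that of compound D in preparation 2, r = 0.698, another pair with no library in common. With that of compound D in preparation 3 it correlated at -0.15. The compound E difference in preparation 2 correlated with those of compound D in preparations 1 and 3 at -0.04 and -0.11.

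**Figure D2:**
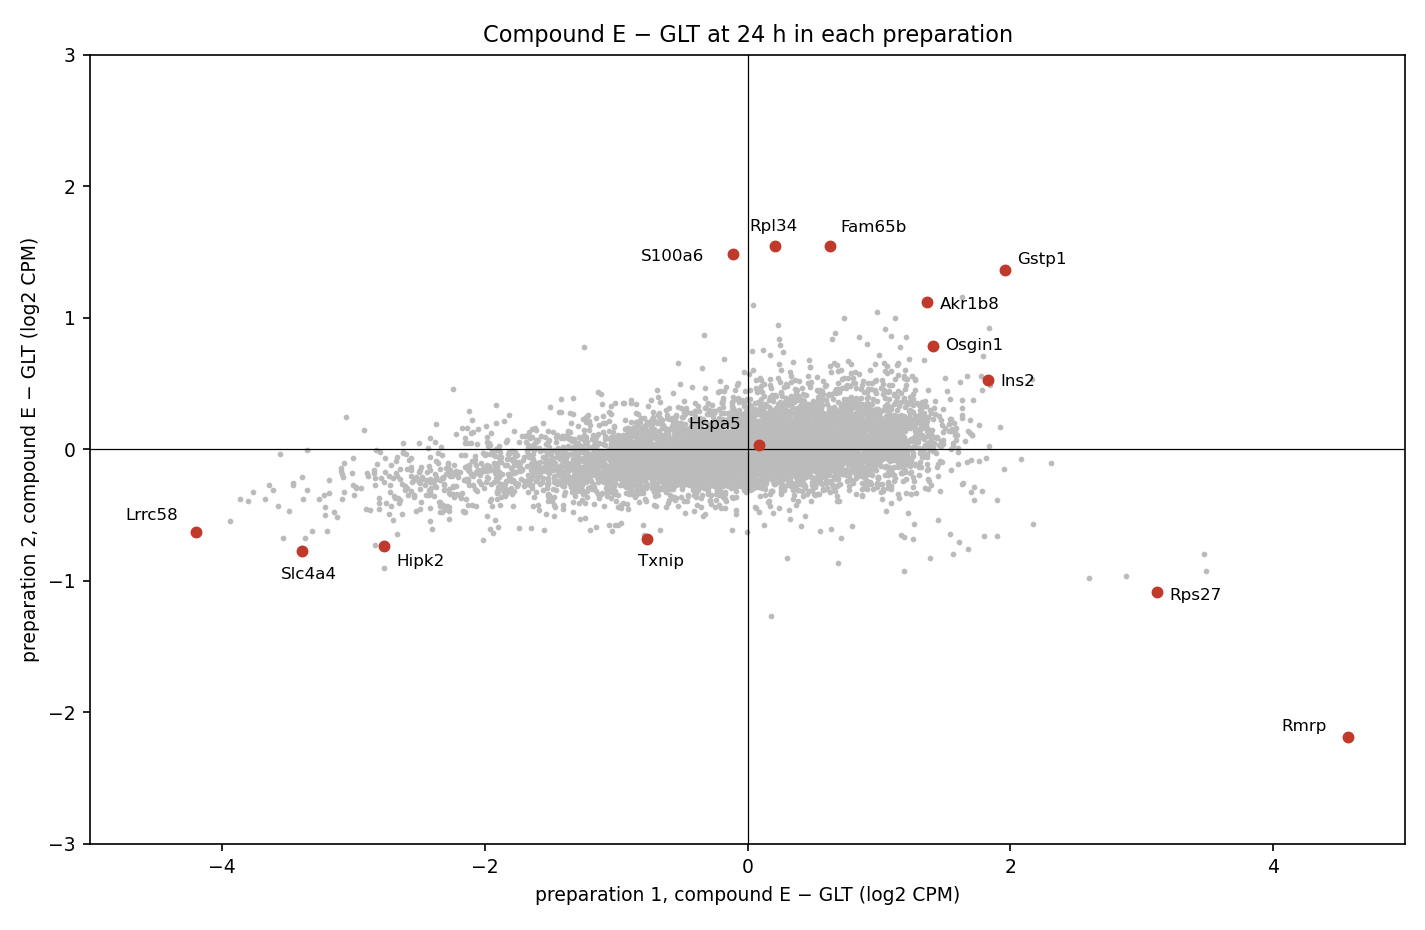
Each grey point is 1 of 8794 genes, with the log2 CPM difference of compound E from GLT in preparation 1 on the x axis and in preparation 2 on the y axis; both axes have the same scale, and named genes are in red. The cloud is wide along preparation 1 and narrow along preparation 2, with Gstp1 at 1.96 and 1.36 and Rmrp at 4.57 and -2.19.

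The 12 genes at least 2-fold apart in preparation 2 were named after their values were seen. Of these, 8 had the same sign in preparation 1, where 64.7% of all 8794 genes had the same sign in both preparations. Of the 8794 genes, 5688 had the same sign in both preparations, and 1308 of these were at least 2-fold apart in preparation 1. Of the 8 named after their values, 4 were at least 2-fold apart in preparation 1 too. They were Gstp1, the histone gene Hist3h2ba, the aldo-keto reductase gene Akr1b8 and Gal, the gene for the neuropeptide galanin, all higher with compound E. The other 4 of the 8 were Col11a2, a collagen gene, Fam65b, the mismatch repair family gene Msh5 and the ribosomal protein gene Rpl34. The remaining 4, the calcium-binding protein gene S100a6, the class I histocompatibility gene RT1-CE14, the RNA gene Rmrp and the ribosomal protein gene Rps27, had opposite signs. Rps27 had 237 and 74.2 CPM in compound E libraries of preparations 1 and 2, against 27.3, 158 and 48.6 CPM in GLT libraries of preparations 1 to 3. Compound E and GLT libraries overlapped, and the GLT libraries alone covered a wide range. Ribosomal protein genes and RT1 genes have near-identical copies, so their counts are uncertain, as are those of Rmrp, a short transcript.

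Genes of the defence against oxidants and electrophiles had most of their fitted values above 0 with compound E. This response is driven by the factor NRF2, which binds antioxidant response elements. Of 31 tested genes of the NRF2 and oxidative stress list, 0 passed, 17 were higher and 2 lower in both preparations, against 30.3% and 30.2% of all 12576 genes. The median fitted log2 fold change was 0.36, against 0.04 over all genes, with medians of 0.52 in preparation 1 and 0.16 in preparation 2, and 5 members had an unadjusted p under 0.05, all of them higher with compound E. The median was -0.08 under library size alone, where that of all genes was -0.36, and 0.06 without the compound E library of preparation 1. The summed CPM of the list was 6115 and 4404 in compound E libraries, against 3933, 4096 and 5818 in GLT libraries. The GLT library of preparation 3, which has no compound E partner, lay between the compound E libraries.

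Gstp1 encodes a glutathione transferase that couples glutathione to reactive compounds. It had 101 and 62.8 CPM in compound E libraries of preparations 1 and 2, against 26.0, 24.4 and 68.7 CPM in GLT libraries of preparations 1, 2 and 3. Compound E was 3.88-fold and 2.57-fold above GLT within preparations 1 and 2, but the groups overlapped, since GLT in preparation 3 was as high as compound E in preparation 2. The fitted log2 fold change was 1.34 (SE 0.41, adjusted p = 0.566 by edgeR's quasi-likelihood test with BH). It stayed between 0.65 and 1.80 when single libraries or preparations were left out. Compound D libraries had 34.5, 81.3 and 92.0 CPM, and compound E differed from compound D by 0.51 (SE 0.41, 95% interval -0.36 to 1.37).

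Osgin1, an oxidative stress induced growth inhibitor gene, had 8.12 and 4.99 CPM in compound E libraries, against 3.01, 2.86 and 7.25 CPM in GLT libraries. Gsta3, another glutathione transferase gene, had 4.57 and 3.31 CPM with compound E, against 1.62, 0.965 and 4.80 CPM with GLT. Akr1b8 had 22.8 and 13.9 CPM with compound E, against 8.78, 6.37 and 46.6 CPM with GLT. All 3 showed the Gstp1 pattern: compound E was above GLT within each preparation, and GLT in preparation 3 was as high as or higher than a compound E library. For Akr1b8 the sign of the fitted value turned from 0.90 to -0.17 when the preparation was left out of the model.

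The promoter of Gstp1 is shown because Gstp1 had the highest smaller-of-the-pair difference among the 12 genes furthest above GLT in both preparations. The 300 bases from RefSeq (GRCr8, chr1:210769656-210769955, minus strand) run from 250 bases before the annotated start to 50 after it, and the capitals mark a match to TGANTCA, the core shared by AP-1 sites and many antioxidant response elements, at position -61 counted from that start.
Gstp1 promoter: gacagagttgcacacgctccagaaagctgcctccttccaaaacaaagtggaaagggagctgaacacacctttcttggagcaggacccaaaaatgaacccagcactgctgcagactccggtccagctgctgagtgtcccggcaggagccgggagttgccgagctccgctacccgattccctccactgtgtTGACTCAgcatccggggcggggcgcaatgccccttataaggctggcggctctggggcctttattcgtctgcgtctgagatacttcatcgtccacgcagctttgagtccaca
TGANTCA, which reads the same on both strands, was found in 7.33% of 33469 RefSeq promoters of this length. It was found in 2 of the 10 of these 12 genes with an entry, Gstp1 and Plaur, and in 3 of 29 matched genes of the NRF2 list, Gstp1, Prdx1 and Srxn1. A match is a stretch of letters and not a measured binding site.

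The 12 genes furthest above GLT in both preparations, by the smaller of the 2 differences, were Gstp1, Hist3h2ba, Akr1b8, Gal, Col11a2, Rplp1, LOC685322, Plaur, Crip1, Cox6c, Fosl1 and Osgin1. They were chosen by these values, which are a description. In 7 of the 12 (Hist3h2ba, Gal, Col11a2, Rplp1, LOC685322, Crip1 and Cox6c) both compound E libraries were above all 3 GLT libraries. Over the 8794 genes that held for 1600 (18.2%), and 1841 (20.9%) had both compound E libraries below all 3 GLT libraries.

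Gal, which encodes a neuropeptide that inhibits insulin release, had 6.15 and 6.80 CPM in compound E libraries, against 2.79, 3.36 and 1.32 CPM in GLT libraries, and compound D libraries had 4.07, 8.03 and 2.65 CPM. Its compound E values were close together and above every GLT value, as for 18.2% of the 8794 genes. The fitted log2 fold change was 1.30 (SE 0.44). Col11a2 had 11.9 and 8.58 CPM with compound E, against 5.95, 4.13 and 5.97 CPM with GLT, with a fitted value of 0.92 (SE 0.31). Neither gene passed (adjusted p = 0.566 for both, edgeR's quasi-likelihood test with BH).

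Plaur and Fosl1 are genes of the growth factor and AP-1 response: Plaur encodes the urokinase receptor and Fosl1 a member of the Fos family. Plaur had 11.5 and 9.09 CPM in compound E libraries, 3.45, 5.66 and 5.39 CPM in compound D libraries, and 5.35, 4.98 and 10.03 CPM in GLT libraries. Fosl1 had 7.98 and 5.78 CPM with compound E, 1.94, 1.34 and 3.16 CPM with compound D, and 4.22, 3.28 and 8.32 CPM with GLT. Both genes were above GLT in preparations 1 and 2 and overlapped with GLT in preparation 3. Every compound E library lay above every compound D library. The share of all genes with that separation was not counted, so it does not set these genes apart.

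**Figure D3:**
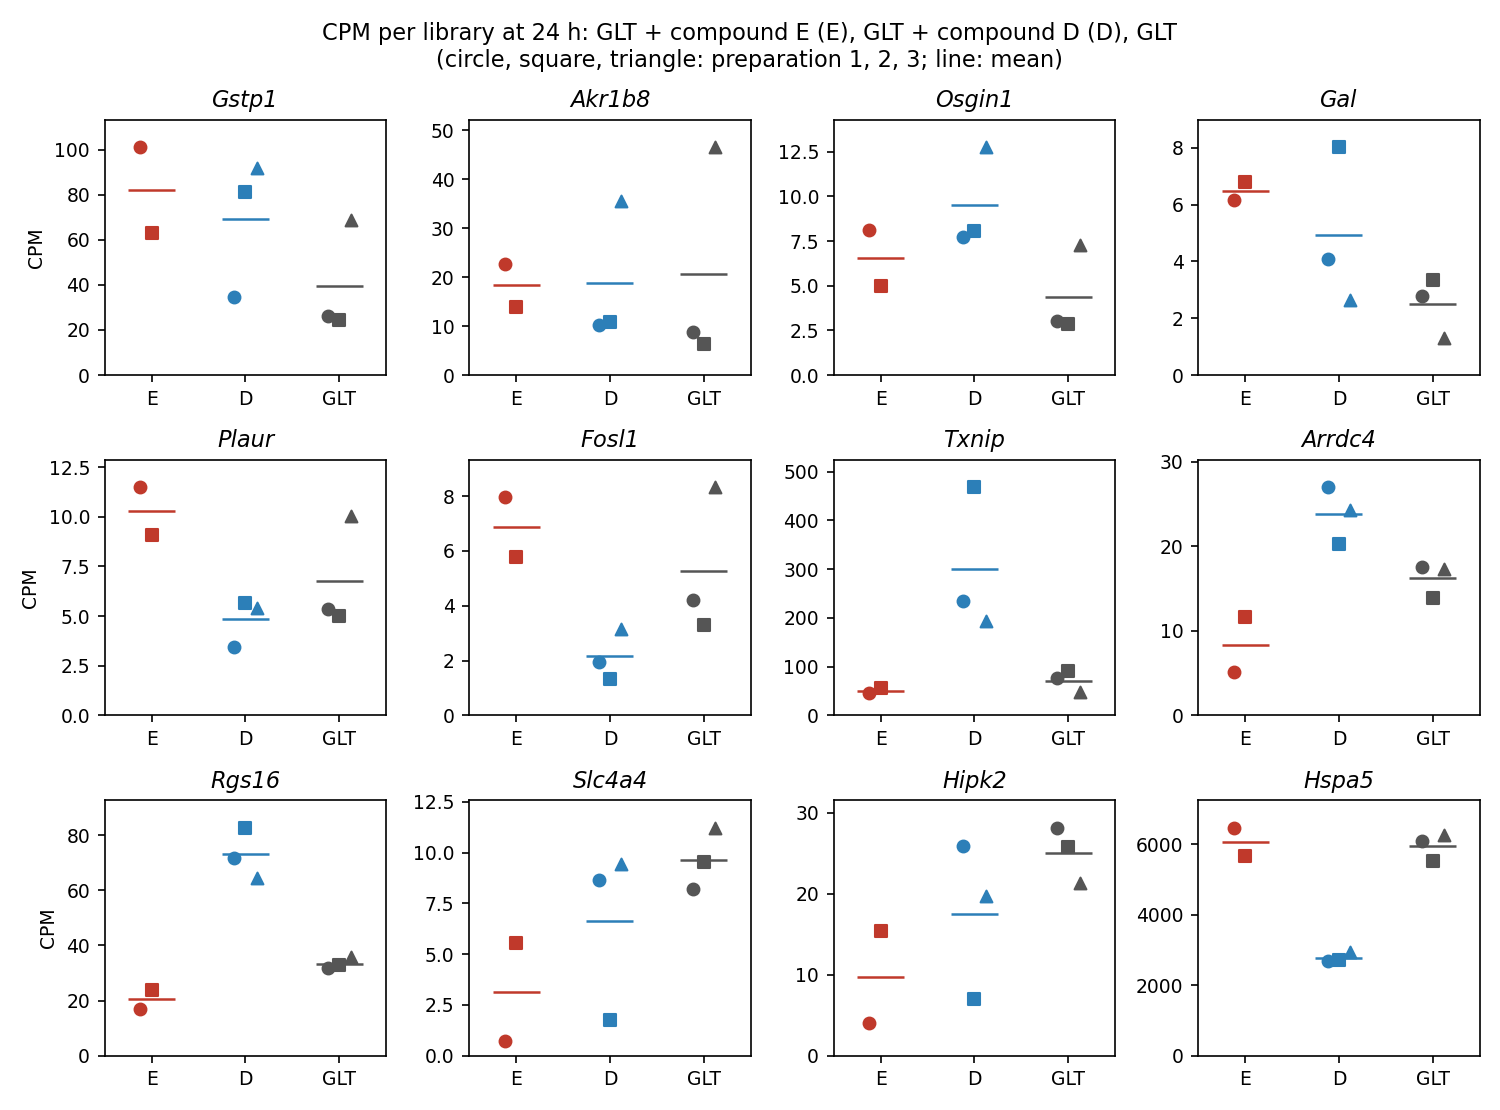
Each panel plots the CPM of 1 gene in every 24 h library under GLT with compound E (E), GLT with compound D (D) and GLT alone, with circles, squares and triangles for preparations 1, 2 and 3 and a line at the group mean; each y axis starts at 0. For Gstp1, Akr1b8 and Osgin1 the GLT triangle of preparation 3 lies far above the other GLT points, and for Txnip, Rgs16 and Hspa5 the compound D points lie apart from both other groups.

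Genes that glucose switches on mostly had fitted values below 0 with compound E. Of 13 tested genes on the glucose-responsive list, 0 passed. In both preparations 9 were lower and 1 higher, against 30.2% and 30.3% of all 12576 genes. The median fitted log2 fold change was -0.30 (-0.68 in preparation 1 and -0.10 in preparation 2), against 0.04 over all genes. The list median came to -0.18 with preparation 2 as the only compound E library. Under library size alone it was -0.70, where that of all genes was -0.36. Unadjusted p was under 0.05 for 3 lower members and 1 higher member. The summed CPM of the list was 412 and 475 with compound E, against 498, 516 and 476 with GLT.

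Txnip had 44.9 and 56.6 CPM in compound E libraries of preparations 1 and 2, 235, 468 and 194 CPM in compound D libraries, and 76.5, 90.9 and 46.9 CPM in GLT libraries. Compound E was below GLT by a like amount in both preparations, at 0.587 and 0.623 of the GLT level, and the groups overlapped through GLT in preparation 3. The fitted log2 fold change was -0.75 (SE 0.39, 95% interval -1.58 to 0.07, adjusted p = 0.566 by edgeR's quasi-likelihood test with BH). Over the alternatives it stayed between -1.13 and -0.49, and leaving out single libraries or preparations gave -0.80 to -0.73. Txnip was thus a gene whose fitted value did not depend on the compound E library of preparation 1.

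Arrdc4, an arrestin family gene related to Txnip, had 5.09 and 11.6 CPM with compound E, 27.0, 20.2 and 24.3 CPM with compound D, and 17.5, 13.9 and 17.3 CPM with GLT. Rgs16, which encodes a G protein regulator, had 16.9 and 23.9 CPM with compound E, 71.8, 82.7 and 64.4 CPM with compound D, and 31.8, 32.8 and 35.7 CPM with GLT. For both genes every compound E library was below every GLT library, as for 20.9% of the 8794 genes. Every compound D library was above every GLT library. The share of all genes with that separation was not counted, so it does not set these genes apart. The compound E differences from GLT were larger in preparation 1 (-1.77 for Arrdc4 and -0.91 for Rgs16) than in preparation 2 (-0.26 and -0.45).

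The fitted differences from GLT were -0.93 (SE 0.34) for Arrdc4 and -0.70 (SE 0.30) for Rgs16. Neither gene passed (adjusted p = 0.566 for each, edgeR's quasi-likelihood test with BH).

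The promoter of Arrdc4 is shown because ChREBP acts through E-boxes. The window is again 300 bases (RefSeq, GRCr8, chr1:131793376-131793675, minus strand), and the capitals mark CACGTG, an E-box, at position -177 counted from the annotated start.
Arrdc4 promoter: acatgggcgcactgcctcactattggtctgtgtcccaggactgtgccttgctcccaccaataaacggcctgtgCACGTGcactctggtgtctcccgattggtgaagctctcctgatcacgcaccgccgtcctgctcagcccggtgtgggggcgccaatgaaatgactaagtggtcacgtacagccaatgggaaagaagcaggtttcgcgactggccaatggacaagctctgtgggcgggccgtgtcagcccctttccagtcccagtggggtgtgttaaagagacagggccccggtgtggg
CACGTG, also the same on both strands, was found in 6.42% of the 33469 promoters and in 2 of 9 matched genes of the glucose-responsive list, Arrdc4 and G6pc3. Txnip had no entry. The search was for a single CACGTG, and a match is again not a measured binding site.

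The 12 genes furthest below GLT in both preparations, again chosen by these values, were Kcna2, Slc4a4, Hipk2, Itgb8, Ppargc1a, Txnip, LOC500625, Clcn5, Bbs7, Klhl11, Sox6 and Lrrc58. In all of them except Txnip both compound E libraries were below all 3 GLT libraries, as for 20.9% of the 8794 genes. Slc4a4, a bicarbonate cotransporter gene, had 0.721 and 5.54 CPM with compound E, against 8.22, 9.54 and 11.2 CPM with GLT. Hipk2, a kinase gene, had 4.09 and 15.4 CPM with compound E, against 28.2, 25.7 and 21.3 CPM with GLT. Lrrc58 had 1.35 and 14.0 CPM with compound E, against 25.9, 21.8 and 21.8 CPM with GLT.

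In these 3 genes the compound E library of preparation 1 was far below that of preparation 2. The compound D library of preparation 2 was low in the same way, with 1.77 CPM for Slc4a4, 7.04 CPM for Hipk2 and 2.81 CPM for Lrrc58, where the other compound D libraries had 8.65 and 9.46, 25.9 and 19.7, and 24.2 and 17.1 CPM. Without the compound E library of preparation 1 the fitted log2 fold changes came to -0.28 for Slc4a4, -0.31 for Hipk2 and -0.21 for Lrrc58, in place of -1.29, -1.22 and -1.31. The part that the makeup of these libraries plays in the result was not tested. Bbs7, a gene of the cilium transport complex, differed from this pattern, with 3.70 and 4.58 CPM with compound E, against 6.44, 7.22 and 8.32 CPM with GLT, and -0.64 to -1.04 when single libraries or preparations were left out.

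All 8 hormone genes had a fitted log2 fold change above 0, against 53.3% of all genes. In both preparations 6 were higher, against 30.3% of all genes, and 0 passed. The 2 insulin genes took 42.6% and 35.3% of counts in compound E libraries, 11.7%, 43.3% and 10.002% in compound D libraries, and 23.02%, 25.8% and 9.32% in GLT libraries. Compound E was above every GLT library, yet the compound D library of preparation 2 was as high, and the GLT libraries differed among themselves by more than the compound E libraries did. Ins1 and Ins2 share much of their sequence, so single counts may be divided unevenly between them. Of 24 tested granule and exocytosis genes 0 passed. In both preparations 3 were higher and 12 lower, against 30.3% and 30.2% of all genes. The median was 0.03 (0.00 in preparation 1 and -0.14 in preparation 2).

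Among cytosolic ribosomal protein genes, 75 of 75 had a fitted value above 0 and 50 were higher in both preparations. Over all genes these shares were 53.3% and 30.3%. The list median was 0.69 (1.02 in preparation 1 and 0.08 in preparation 2), with 0 past the test. Rplp1, an acidic protein gene of the ribosomal stalk, had 2234 and 1021 CPM with compound E, against 625, 539 and 238 CPM with GLT. Of 45 respiratory chain genes, 20 were higher and 3 lower in both preparations, against 30.3% and 30.2% of all genes. The medians of that list were 0.83 and -0.01. Cox5b, a cytochrome oxidase subunit gene, had 234 and 130 CPM with compound E, against 78.2, 116 and 71.0 CPM with GLT. In both lists preparation 2 lay near 0 as a whole. The list medians depended on scaling: under library size alone the median of all genes moved to -0.36, and 3 of 27 list medians were above 0 in place of 19, those of hormones (0.45), ribosomal proteins (0.24) and the respiratory chain (0.08). Without the compound E library of preparation 1 the medians of these 3 lists were 0.24, 0.11 and -0.03.

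**Figure D4:**
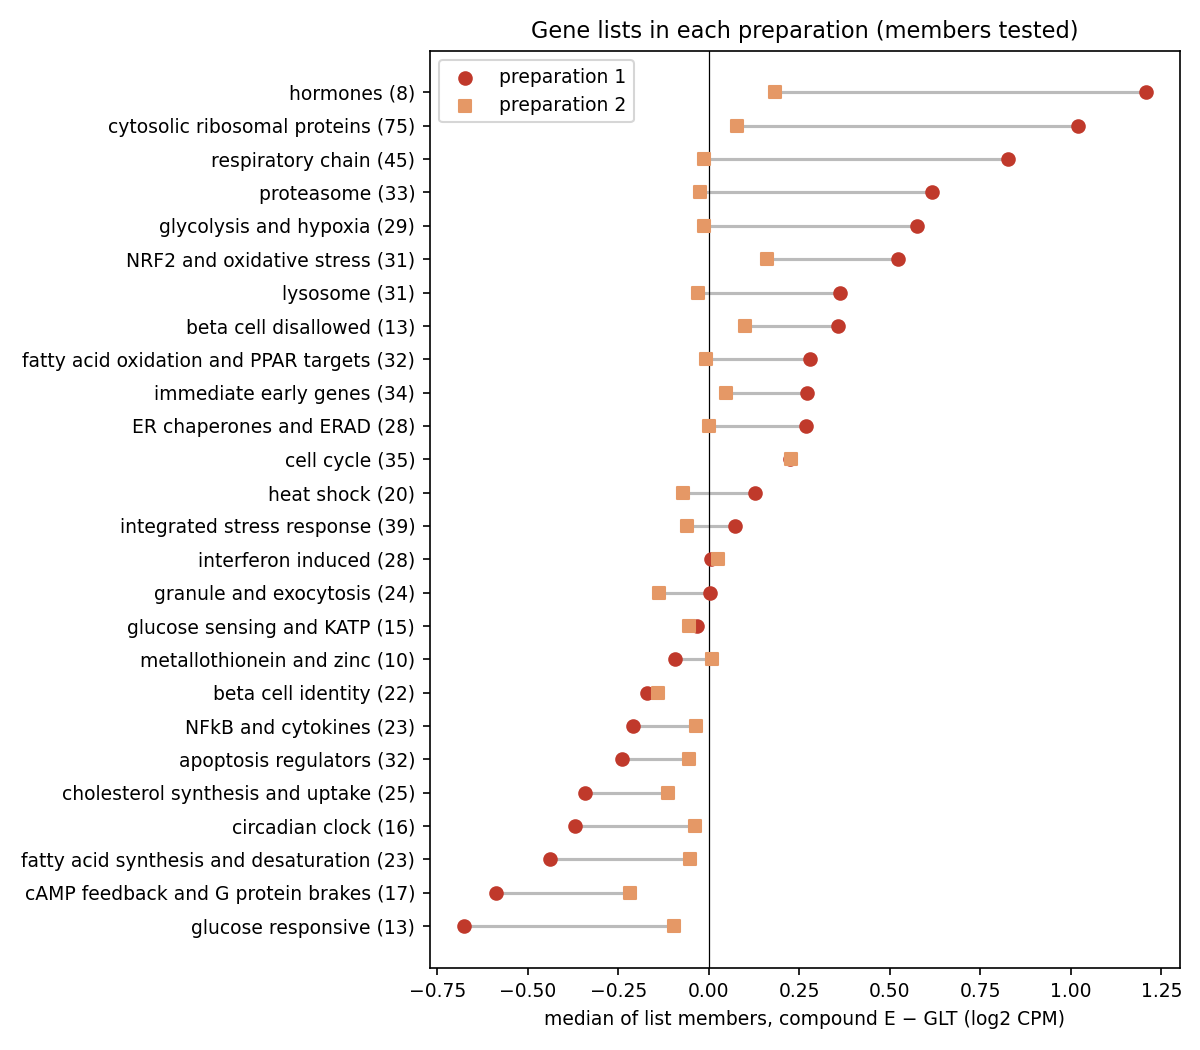
For 26 pathway lists (number of tested members in parentheses), the median log2 CPM difference of compound E from GLT is plotted on the x axis for preparation 1 (circles) and preparation 2 (squares). Medians run from -0.68 to 1.21 in preparation 1 and stay between -0.22 and 0.23 in preparation 2.

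The ER chaperone and degradation list, which marks the unfolded protein response, was close to GLT. Of 28 tested genes 0 passed. In both preparations 14 were higher and 6 lower, against 30.3% and 30.2% of all genes. The median was 0.16 (0.27 in preparation 1 and 0.00 in preparation 2). Hspa5, the gene for the ER chaperone BiP, had 6467 and 5649 CPM with compound E, 2688, 2717 and 2926 CPM with compound D, and 6074, 5529 and 6259 CPM with GLT. Compound E and GLT overlapped, with a fitted difference of 0.05 (SE 0.16, 95% interval -0.29 to 0.38, inside 2-fold). With library size alone the value was -0.37, where the median of all genes was -0.36. Compound D lay far below compound E and GLT.

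Sdf2l1 and Derl3, genes of ER protein folding and of the degradation of misfolded ER proteins, were 2 of the 3 chaperone list members with the lowest unadjusted p; the other was Sec61b, which encodes a subunit of the ER translocon. Sdf2l1 had 174 and 113 CPM with compound E, against 67.7, 101 and 63.1 CPM with GLT. Derl3 had 39.6 and 32.1 CPM with compound E, against 18.6, 30.9 and 25.4 CPM with GLT. Both compound E libraries were above all GLT libraries in both genes, as for 18.2% of the 8794 genes. Within preparation 2, however, the log2 differences of Sdf2l1 and Derl3 were 0.16 and 0.06. Sec61b had 831 and 883 CPM with compound E, against 525, 479 and 305 CPM with GLT. It too was above every GLT library, with log2 differences of 0.66 and 0.88 within preparations 1 and 2.

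Beta cell identity genes showed no common direction. Of 22 tested, 0 passed, with a median of -0.10. In both preparations 4 were higher and 10 lower, against 30.3% and 30.2% of all genes. Pdx1, a beta cell transcription factor gene, had 173 and 110 CPM with compound E, against 97.6, 111 and 62.0 CPM with GLT. Ucn3, a marker of mature beta cells, had 206 and 142 CPM with compound E, against 121, 159 and 82.3 CPM with GLT. Neurod1, another islet transcription factor gene, had 105 and 147 CPM with compound E, against 204, 163 and 191 CPM with GLT. In preparation 2 the differences of these 3 genes from GLT were -0.01, -0.16 and -0.15 on the log2 scale, and fitted values without the compound E library of preparation 1 were -0.14, -0.04 and -0.06.

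Cell cycle genes were the list with the most even medians, 0.23 in each preparation. Of 35 tested genes 16 were higher and 7 lower in both, against 30.3% and 30.2% of all genes. Mcm6, a subunit of the replication helicase, had 8.94 and 8.99 CPM with compound E, against 4.45, 5.44 and 6.86 CPM with GLT. Both compound E libraries were above all GLT libraries, as for 18.2% of the 8794 genes, and the fitted value was 0.81 (SE 0.21). Mcm5, another helicase subunit, had 4.85 and 5.09 CPM with compound E, against 2.83, 2.66 and 4.91 CPM with GLT. Aurkb, a mitotic kinase gene, was at about 1 CPM or below, with 0.913 and 1.13 CPM with compound E, against 0.791, 0.348 and 0.640 CPM with GLT. No member passed.

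Genes of the integrated stress response, which cells use to cope with amino acid shortage and unfolded proteins, were on balance at the GLT level. Of 39 tested genes 0 passed, with a median of 0.00, 8 higher and 15 lower in both preparations. Over all genes 30.3% were higher and 30.2% lower in both, which also holds beside the next lists. Cebpb, a transcription factor gene of that response, had 31.2 and 15.3 CPM with compound E, against 10.6, 15.1 and 3.98 CPM with GLT, and in preparation 2 the difference was 0.02. Slc7a1, an arginine transporter gene, had 68.9 and 88.6 CPM with compound E, against 113, 109 and 122 CPM with GLT. Of 34 immediate early genes, which cells switch on within minutes of a stimulus, 16 were higher and 9 lower in both preparations. Of 23 NF-kB and cytokine genes 5 were higher and 8 lower, with Il1r1, the interleukin 1 receptor gene, at 136 and 566 CPM with compound E, against 799, 621 and 786 CPM with GLT.

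On both lists of lipid synthesis genes more members were lower than higher in both preparations, and 0 passed. Over all genes 30.2% were lower and 30.3% higher in both preparations. Of 25 cholesterol synthesis and uptake genes, 18 were lower and 3 higher in both preparations, with a median of -0.20 (-0.34 and -0.11), and with -0.02 once the compound E library of preparation 1 was left out. Abca1, the cholesterol export transporter gene, had 12.2 and 41.1 CPM with compound E, against 49.9, 49.3 and 58.1 CPM with GLT. The other 2 members with the lowest unadjusted p, the mevalonate pathway genes Pmvk and Mvd, had fitted values above 0. Pmvk had 38.2 and 21.8 CPM with compound E, against 15.7, 20.97 and 14.3 CPM with GLT. Mvd had 36.5 and 20.8 CPM with compound E, against 16.5, 22.4 and 20.9 CPM with GLT. Their fitted values were 0.77 (SE 0.30) and 0.57 (SE 0.32), with differences of 0.06 and -0.11 within preparation 2. Of 23 fatty acid synthesis and desaturation genes 13 were lower and 5 higher, with Acsl3, an acyl-CoA synthetase gene, at 31.2 and 37.0 CPM with compound E, against 48.4, 42.2 and 66.9 CPM with GLT. The median of that list was -0.13, and 0.01 without the compound E library of preparation 1. Fatty acid oxidation genes had 13 higher and 5 lower of 32, with a median of 0.12.

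Markers of the other cells of an islet were present in all 5 libraries at unequal levels. In bulk RNA, fewer cells of a type and less RNA per cell cannot be told apart. The 12 alpha cell markers summed to 33402 and 27047 CPM with compound E, against 23699, 25949 and 12839 CPM with GLT, and the 7 tested of 9 delta cell markers to 2065 and 1321 CPM, against 1005, 1497 and 397 CPM. The 16 tested of 17 endothelial markers summed to 165 and 173 CPM with compound E, against 142, 153 and 66.7 CPM with GLT. GLT in preparation 3 was the lowest on these 3 lists.

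The 18 tested of 19 macrophage markers summed to 163 and 105 CPM with compound E, against 82.5, 103 and 94.2 CPM with GLT. The 18 tested of 19 stellate cell and fibroblast markers summed to 2074 and 2941 CPM, against 2581, 3081 and 1793 CPM, and the 10 tested of 13 duct markers to 1343 and 1127 CPM, against 940, 1081 and 1093 CPM. Acinar markers summed to 21.7 and 20.02 CPM with compound E, against 14.8, 19.3 and 12.1 CPM with GLT, and lymphocyte markers to 4.57 and 5.47 CPM, against 5.31, 4.48 and 6.86 CPM, with Cd3d, Cd3g and Ms4a1 at 0 in all 5 libraries. Schwann cell markers summed to 67.6 and 74.2 CPM, against 62.3, 64.8 and 66.0 CPM, and red cell markers to 52.1 and 35.1 CPM, against 37.2, 34.4 and 28.2 CPM. Their part in the gene differences was not tested.

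Set directly against compound D, compound E differed at 378 of 12576 genes (3.01%) by edgeR's quasi-likelihood test with BH, 230 higher (1.83%) and 148 lower (1.18%) with compound E. Of 28 chaperone genes 10 were higher and 0 lower with compound E, and of 13 glucose-responsive genes 1 was higher and 5 lower. Immediate early genes had 7 higher and 1 lower of 34, while the NRF2 list had 0 of 31. The median fitted difference from compound D was 0.97 for immediate early genes, 0.68 for chaperones and -0.59 for glucose-responsive genes. Ribosomal protein genes had a median of 0.86 and hormones of 0.76, with 1 member higher on each list and 0 lower. The chaperone list summed to 30248 and 28324 CPM with compound E, 17284, 17725 and 18986 CPM with compound D, and 28757, 28199 and 25348 CPM with GLT, so compound E and GLT libraries overlapped and compound D libraries were below both.

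Hspa5 differed from compound D by 1.15 on the log2 scale (SE 0.16, adjusted p = 0.00202, edgeR's quasi-likelihood test with BH), Sdf2l1 by 1.91 (SE 0.30) and Derl3 by 2.08 (SE 0.30). Txnip differed by -2.79 (SE 0.42, adjusted p = 0.0031), Rgs16 by -1.83 (SE 0.31) and Arrdc4 by -1.48 (SE 0.35) in the same test. For Txnip, Rgs16 and Arrdc4 compound D libraries were above GLT and compound E libraries below the GLT mean.

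A further 4 genes that are low under compound D were added with earlier results known, 3 of them outside the rule for named genes; their separation from compound D is fixed by that choice. Il23a, a cytokine subunit gene, had 69.9 and 50.03 CPM with compound E, 5.83, 5.23 and 6.01 CPM with compound D, and 51.2, 42.0 and 94.2 CPM with GLT. Gpr50, an orphan receptor gene, had 4.66 and 6.42 CPM with compound E, 0.0627, 0.0864 and 0.322 CPM with compound D, and 7.39, 6.29 and 9.14 CPM with GLT. Abcb1a, a drug efflux pump gene, had 30.8 and 30.8 CPM with compound E, 5.36, 1.43 and 10.6 CPM with compound D, and 52.3, 30.4 and 93.7 CPM with GLT. In all 3 genes both compound E libraries were above every compound D library.

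Plagl1, a zinc finger gene, had 75.6 and 125 CPM with compound E, 13.8, 13.8 and 10.1 CPM with compound D, and 152, 186 and 129 CPM with GLT. With compound E it lay below every GLT library, as did 20.9% of the 8794 genes. The fitted differences of compound E from GLT were 0.22 for Il23a (95% interval -0.35 to 0.80), -0.29 for Gpr50 (-1.65 to 1.07), -0.34 for Abcb1a (-1.27 to 0.58) and -0.70 for Plagl1 (-1.49 to 0.09). The interval stayed inside 2-fold for Il23a only. Compound E differed from compound D by 3.59 (SE 0.28), 5.24 (SE 0.78), 3.12 (SE 0.45) and 2.93 (SE 0.37) for the same genes in that order, and all 4 passed edgeR's quasi-likelihood test.

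**Figure D5:**
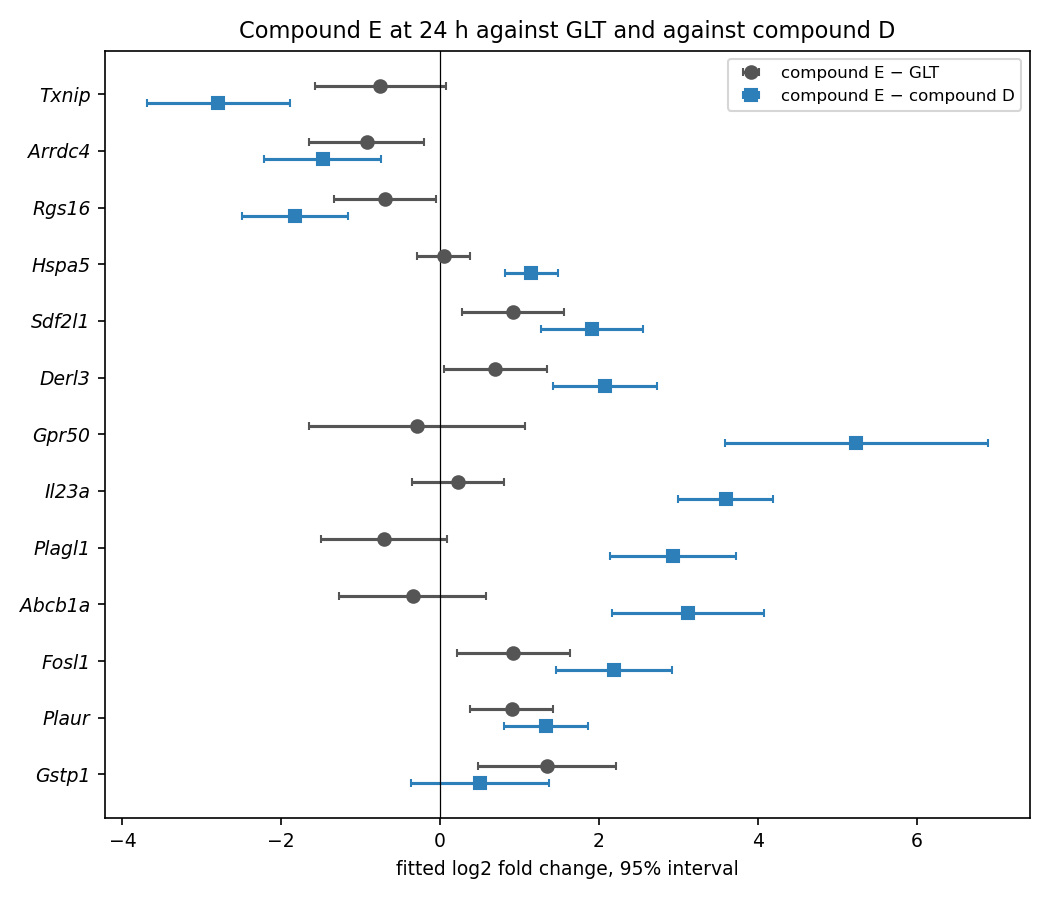
Fitted log2 fold changes of compound E from GLT (grey circles) and from compound D (blue squares) with 95% intervals are plotted on the x axis for 13 genes. For Txnip the values are -0.75 and -2.79, for Hspa5 0.05 and 1.15, and for Gstp1 1.34 and 0.51.

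Plaur and Fosl1 were also higher with compound E than with compound D, by 1.33 (SE 0.25, adjusted p = 0.00944) and 2.19 (SE 0.34, adjusted p = 0.00344) in edgeR's quasi-likelihood test with BH. Mcm5 (1.48, SE 0.32) and Cebpb (2.07, SE 0.47) passed as well. Gstp1, Osgin1, Gal and Col11a2 did not, with differences of 0.51, -0.16, 0.38 and 0.21.

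A fit of the compound E and compound D libraries alone called 0 genes, and the cause was not tested. With the preparation block, the fitted differences in that fit were 1.16 for Hspa5, -2.72 for Txnip and 6.13 for Gpr50. In the main fit they were 1.15, -2.79 and 5.24. Leaving out the compound E library of preparation 1 gave 46 genes, leaving out that of preparation 2 gave 2798, and leaving out the compound D library of preparation 1 gave 136. With a whole preparation removed, the counts were 0 (preparation 1), 4543 (preparation 2) and 101 (preparation 3). Without the compound E library of preparation 1, Hspa5, Il23a, Gpr50, Plagl1 and Abcb1a still passed, and Txnip (-2.78), Rgs16 (-1.44), Arrdc4 (-0.85), Sdf2l1 (1.19), Derl3 (1.58), Plaur (1.05), Fosl1 (2.16), Mcm5 (1.66) and Cebpb (0.97) kept their direction and did not pass. Without the compound D library of preparation 1, Arrdc4 (-1.42), Plaur (1.22), Mcm5 (1.43) and Cebpb (1.81) did not pass. Without that of preparation 2 Mcm5 (1.36) did not, and without that of preparation 3 Arrdc4 (-1.45) and Cebpb (1.93) did not.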

How the data were processed

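RNA from rat islets was measured in 21 libraries. Per the labels' protocols, paired 100 bp reads were mapped with TopHat2 2.0.3 and Bowtie2 2.0.0 (build rn5) and summarised with HT-seq. The deposited values are raw counts for 17025 genes; the strand setting and annotation are not given in the sources used here, so overlapping and antisense genes cannot be told apart. The 5 entries that name no gene stayed out of totals and tests. Sample sheet and sample records disagree on 6 libraries at other conditions, none of them compared here, and exchanging the names leaves the compound E fit as it is.

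All libraries entered 1 edgeR 4.0.16 fit (R 4.3.3) with terms for condition and preparation, TMM scaling and filterByExpr. The quasi-likelihood test was 2-sided, with BH over 12576 genes at 0.05. Preparation was a block because 1 pool of islets was divided over the groups; residuals of the same preparation correlated at 0.205 on average (0.0698, 0.183 and 0.425 in preparations 1, 2 and 3). P-values measure the spread that is left between libraries after the terms for condition and preparation, estimated over all 21 libraries. Among these, the 3 h GLT library of preparation 2 had 23.4% of reads not uniquely aligned. Its share of counts in ribosomal protein genes, 0.432%, was the lowest of the 21. A fit without conditions 2 and 3, which leaves that library out, called 0 genes against GLT and 184 against compound D. The small number of preparations limits precision. Differences within a preparation are of log2 CPM with a prior count of 2. No libraries within the 24 h compound E group or the 24 h GLT group agreed within counting noise (lowest chi-square per degree of freedom 26.6). Other groups were not checked for this. Alternatives used DESeq2 1.42.0, limma 3.58.1, other scalings, filters and subsets. Named genes are the 12 highest and 12 lowest differences shared by both preparations (at least 5 CPM), up to 3 members per list by lowest p, hormones, Txnip, Hspa5 and cell type markers; exceptions are stated. Lists, their members (825 of 871 symbols matched) and named genes were chosen with earlier results of these data known. Promoters come from RefSeq, whose build (GRCr8) differs from that of the counts. A result on 1 gene is not reported here.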

Additional observations from a re-analysis of the deposited data

How the results depend on the processing

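Against GLT, the count of 0 held under all alternatives except those that left the compound E library of preparation 1 as the only one: leaving out single libraries or preparations gave 0 to 3241 genes. With no replicate block the count was 0, and with only the groups compared it was 0 with or without the block. Of 1800 alternative values for 72 named genes, 1674 kept direction and side of the threshold, 81 passed, and 45 changed sign. Against compound D the 378 became 236 with library size only (58 higher, 178 lower, 24.6% in place of 60.8% higher; the median of all genes moved to -0.39), 841 with DESeq2, 42 with limma quality weights, 149 with no replicate block, 0 and 0 with only the groups compared with and without the block, 10 with only the 3 GLT groups and 184 without conditions 2 and 3, and 0 to 4543 when single libraries or preparations were left out; the cause was not tested. Of 375 values for 15 genes, 282 kept their call and 91 lost it. Library size only left 3 of 27 list medians above 0, in place of 19. The correlation of both compound E pairs stayed between 0.370 and 0.383.

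Signs turned against GLT with library size only for Hspa5 (-0.37), Gcg (-0.051), Iapp (-0.0016), Il23a (-0.21), Ucn3 (-0.0033), Msh5 (-0.0083) and RT1-CE14 (-0.47). In that setting the median of all genes was -0.36. With no replicate block they turned for Akr1b8 (-0.17; -0.18 with only the groups compared) and Il23a (-0.059; -0.068). RT1-CE14 was also -0.17 with quality weights, -0.12 with preparation as a random effect, -0.54 with only the groups compared with the block and -0.21 with only the 3 GLT groups. Leaving out single libraries or preparations turned signs for Hspa5 (-0.11 to 0.18), Il23a (-0.039 to 0.45), Ucn3 (-0.041 to 0.90), Pdx1 (-0.14 to 1.03), Mvd (-0.11 to 1.06), Sst (-0.27 to 1.46), Gpr50 (-0.71 to 0.040), Abcb1a (-0.78 to 0.031), Rps27 (-0.52 to 2.27), Rmrp (-1.61 to 3.34), RT1-CE14 (-1.19 to 0.82), Abca1 (-2.50 to 0.050), Cacna1c (-1.41 to 0.001975) and Il1r1 (-2.59 to 0.27), and against compound D for Gstp1 (-0.31 to 1.11). With 2 compound E libraries, the 95% interval excluded a 2-fold change for 50.4% of genes.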

Other observations

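A single library held islets given GLT with compound E for 3 h, from preparation 2, and was set beside the compound D library of the same time and preparation with no test. Txnip had 82.9 CPM with compound E and 922 CPM with compound D at 3 h. Arrdc4 had 10.7 CPM with compound E and 39.1 CPM with compound D, and Rgs16 had 30.4 CPM with compound E and 110 CPM with compound D. These 3 glucose-responsive genes were thus lower with compound E than with compound D in this pair of libraries too. Hspa5 had 5486 CPM with compound E and 5064 CPM with compound D at 3 h, where at 24 h in the same preparation it had 5649 CPM with compound E and 2717 CPM with compound D. Gstp1 had 36.2 CPM with compound E and 34.6 CPM with compound D at 3 h, and 62.8 CPM with compound E and 81.3 CPM with compound D at 24 h.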
